A study of Mus musculus with 34 samples.

Results

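The cytosolic ribosomal protein genes encode the proteins of the ribosome that translates nuclear mRNAs. Members were taken by name, from probe sets (groups of probes for a transcript) that list no other gene. Member symbols in the array's annotation start with Rpl (large, 60S subunit) or Rps (small, 40S subunit) and a digit. The Rps6k kinases and pseudogenes were left out. This gave 47 genes of 18193 named on the array, 24 of the large and 23 of the small subunit. Each was read on its own probe set with the highest mean. A further 30 symbols of ribosomal protein genes occur only on probe sets shared with other loci and are not among the 47. Of the 47, 44 passed a filter on low signal (4 or more arrays with a log2 value of 4 or more). The other 3, Rps16, Rpl3l and Rpl39l, had means of 2.17, 2.53 and 2.94 and were not tested. The rule by name also takes in 2 genes that are no structural ribosomal proteins: Rps19bp1 encodes a binding partner of Rps19, and Rpl7l1 a factor of 60S assembly. It leaves out Rplp0, Rplp2, Rpsa and Fau, which are ribosomal proteins and are described apart.

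The samples were pieces of thoracic spinal cord from mice of 8 to 12 weeks on C57BL/6J, backcrossed for more than 20 generations. Mice were wild-type for trkB.T1 (WT), the truncated form of the BDNF receptor gene Ntrk2, or lacked it (KO). Controls labelled sham comprised 4 WT and 4 KO arrays, and injured cords were taken 1, 3 and 7 days after a moderate contusion: 5 WT and 4 KO at day 1, 4 WT and 5 KO at day 3, and 4 WT and 4 KO at day 7, 34 arrays in all. How the deletion was made is not stated in the labels, which call the arrays biological replicates without saying how many mice gave tissue to each.

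Ribosomal proteins are needed in equal numbers, and their genes are among the most strongly transcribed of the cell. Their mRNAs start with a run of pyrimidines, the 5′ terminal oligopyrimidine (TOP) tract, through which mTOR signalling and the RNA-binding protein LARP1 set their translation and stability. Growing and dividing cells make more ribosomes than resting ones, for which MYC drives ribosomal protein and rRNA transcription together. In injured cord, resident microglia divide and blood-borne macrophages enter in the first week.

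RefSeq promoters of build GRCm38.p6 were matched for 41 of the 47 genes. The windows below run from 15 bases before the annotated start to the first 15 bases of exon 1, in the 5′ UTR. They are shown because a TOP tract lies at the very start of the mRNA. They are written 5′ to 3′ on the gene's strand, with the longest run of C or T anywhere in the window in capitals. In Rps25, Rps27l, Rpl22 and Rpl10a this run ends before the annotated start, so it lies outside the annotated mRNA. The first 6 windows are those of the genes with the largest increases at day 3 in WT. The last 2 windows are those of genes that did not pass the test there. They lie at chr9:44407699-44407728 (plus strand, Rps25), chr9:66946071-66946100 (plus, Rps27l), chr17:33955651-33955680 (minus, Rps18), chr4:152325711-152325740 (plus, Rpl22), chr17:24720048-24720077 (plus, Rps2), chr17:28328456-28328485 (plus, Rpl10a), chr3:90213634-90213663 (minus, Rps27) and chr3:28805493-28805522 (plus, Rpl22l1).
Rps25: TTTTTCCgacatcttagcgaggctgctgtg
Rps27l: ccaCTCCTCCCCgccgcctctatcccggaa
Rps18: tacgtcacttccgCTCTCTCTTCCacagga
Rpl22: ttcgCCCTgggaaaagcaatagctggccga
Rps2: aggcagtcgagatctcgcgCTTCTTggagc
Rpl10a: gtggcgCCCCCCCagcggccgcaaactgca
Rps27: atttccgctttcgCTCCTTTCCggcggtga
Rpl22l1: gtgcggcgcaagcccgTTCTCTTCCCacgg

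A run of at least 7 pyrimidines stood anywhere in this window in 23 of 41 members (56.1%), against 3123 of 14368 genes on the array (21.7%). Such a run need not begin at the start of the mRNA, so these are not counts of TOP tracts. Among the genes shown above with the largest increases, Rps25, Rps27l, Rps18 and Rpl10a have such a run, and Rpl22 and Rps2 do not. Rps27 and Rpl22l1, whose signal did not pass the test at day 3 in WT, also have one. The probe set of Rps27 stood at 4.71 in 17 of 34 arrays. In the longer promoter, 250 bases before to 50 after the start and read on both strands, the letters CGGAAG, the core of ETS-family sites, occurred in 29 of 41 members (70.7%) against 27.1% of array genes. AAGATGG, which overlaps the site of YY1, occurred in 19.5% against 7.55%. The GC box GGGCGG stood in 56.1% against 57.5%, and TATAAA in 12.2% against 11.5%. These are matches of letters, and no binding was measured here.

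All expression values are the deposited log2 values. They span 2.17 to 15.904, with array medians between 4.139 and 4.39. Of 24573 probe sets tested, calls are those with a limma adjusted p under 0.05 (Benjamini-Hochberg over all probe sets of a comparison). Ntrk2, on one of its probe sets, read 10.01 to 10.85 in the WT arrays. It read 9.46 in sham KO replicate 2 and at most 4.94 in the other KO arrays, so sham KO replicate 2 goes against its label. Day 1 WT replicates 1 and 2 carry source and time fields that name other groups (day 7 and sham), and their titles were followed. The level of a bulk array is set by cells and by RNA per cell together, so that fewer or more cells of a type and less or more RNA per cell cannot be told apart.

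Ribosomal protein mRNAs were higher at every time after contusion, in both genotypes. The mean over the 44 tested genes was 11.92 ± 0.064 (SD, n = 4) in sham WT, where the arrays ran from 11.86 to 11.99. It was 12.43 ± 0.083 (n = 5) at day 1, with arrays from 12.35 to 12.52, and 12.40 ± 0.102 (n = 4) at day 3, from 12.32 to 12.55. At day 7 it was 12.21 ± 0.023 (n = 4), with arrays from 12.18 to 12.23. Each injured WT array thus lay above each sham WT array, and each day 7 array lay below each array of days 1 and 3. In KO cords the group means were 11.93 ± 0.031 (n = 4) in sham, 12.42 ± 0.063 (n = 4) at day 1, 12.44 ± 0.093 (n = 5) at day 3 and 12.26 ± 0.018 (n = 4) at day 7. The KO arrays had the same order, with sham arrays at no more than 11.96, day 7 arrays from 12.23 to 12.27 and no array of days 1 and 3 under 12.34.

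**Figure D1:**
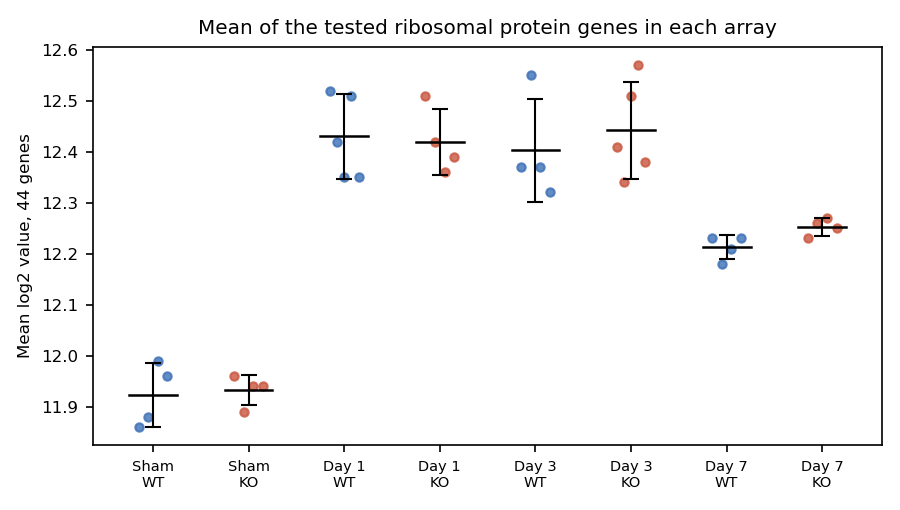
Mean log2 value of the 44 tested ribosomal protein genes in each array (points), by group, with the group mean and SD as a bar and whiskers. Sham arrays of both genotypes lie between 11.86 and 11.99, arrays of days 1 and 3 between 12.32 and 12.57, and day 7 arrays between 12.18 and 12.27.

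At day 1 in WT 39 of the 44 members rose and 0 fell, where 52.9% of all tested probe sets were called, 24.0% higher and 28.9% lower. The median difference was 0.43 on the log2 scale (1.35-fold), against -0.04 over all probe sets. At day 3 in WT 40 rose and 0 fell, with a median of 0.45 (1.37-fold) against -0.07 over all probe sets, of which 61.8% were called, 26.1% higher and 35.7% lower. At day 7 in WT 32 rose and 2 fell, with a median of 0.27 (1.2-fold) against -0.08. At that time 53.5% of all probe sets were called, 21.8% higher and 31.7% lower. The 2 that fell were the paralogs Rps4l and Rpl22l1. The share of members called higher was above the background at each time, while most single changes were small. Of 44 members, those that rose by at least 1.5-fold numbered 14, 12 and 6 at days 1, 3 and 7, against 12.5%, 16.2% and 13.7% of all probe sets. In KO these were 14, 13 and 6 members, against 10.9%, 17.3% and 12.2%. At day 7 the share of members past 1.5-fold was near the background in both genotypes.

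Arrays of injured and sham cords did not overlap for most members. Every injured array lay above every sham array for 37 members at day 1, 39 at day 3 and 34 at day 7 in WT, against 21.0%, 22.2% and 20.9% of all probe sets. In KO this held for 37, 37 and 35 members, against 22.2%, 23.8% and 23.1%. Both subunits took part. In WT, 20 and 19 of the 22 tested genes named Rpl and Rps were called higher at day 1, 21 and 19 at day 3, and 15 and 17 at day 7. These counts go by symbol and so include Rpl7l1 and Rps19bp1, which are no structural ribosomal proteins.

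**Figure D2:**
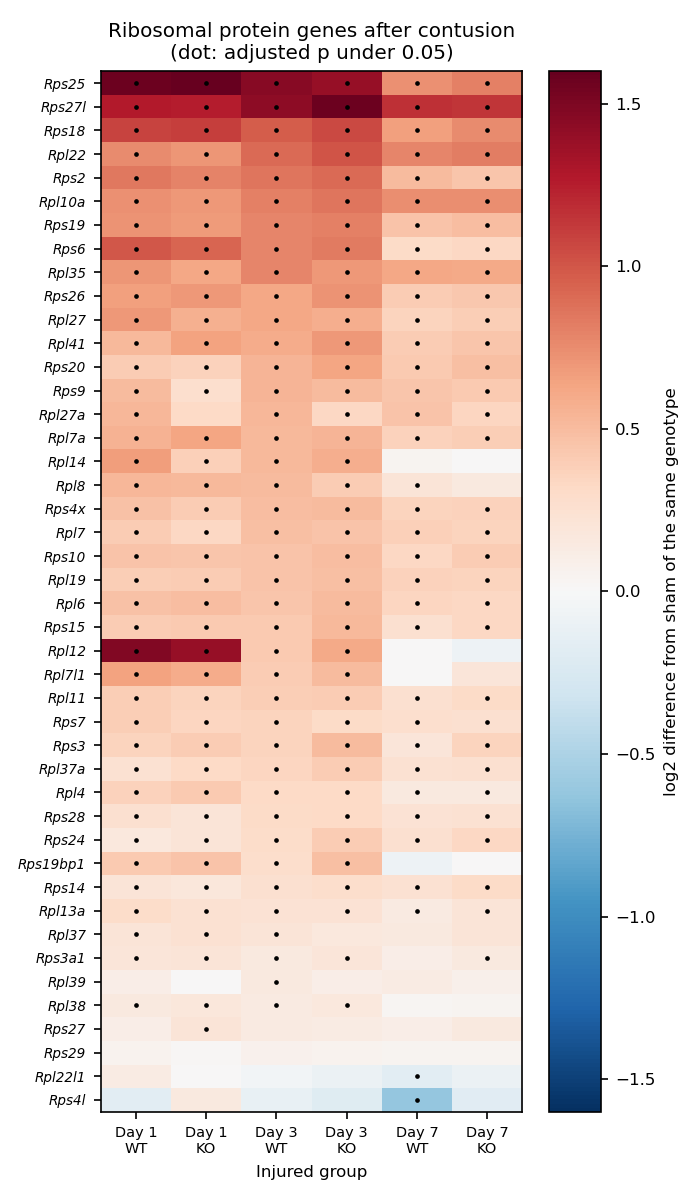
Log2 difference from the sham mean of the same genotype for each of the 44 tested members (rows) at days 1, 3 and 7 in WT and KO (columns), in colour, with a dot where the limma adjusted p was under 0.05. Most rows are positive in all 6 columns, with Rps25 and Rps27l among the largest, Rpl12 high at day 1 (1.48 in WT) and Rps4l and Rpl22l1 at or under 0.15.

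Rps25 had the largest increase at days 1 and 3 in WT, on a probe set with a mean of 7.77. A probe set that lists Rps25 with other loci had a mean of 13.57, and its differences are not given here. Rps25 encodes a small-subunit protein that the internal ribosome entry sites of several viral RNAs need. Its sham WT arrays read 6.79, 6.77, 6.94 and 6.86, and its day 1 arrays 8.60, 8.31, 8.31, 8.48 and 8.34. Its day 3 arrays read 8.07, 9.38, 8.02 and 7.72, and its day 7 arrays 7.63, 7.49, 7.46 and 7.68. No injured array overlapped sham, day 3 replicate 2 stood above the other arrays, and day 7 lay between sham and day 3. The log2 differences in limma were 1.57 ± 0.2 (SE, adjusted p = 3.18e-07), 1.46 ± 0.21 (1.55e-06) and 0.73 ± 0.21 (0.00553).

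Rps27l, a close relative of Rps27 and a target of p53, rose at all 3 times. Its arrays read 10.21, 10.26, 10.43 and 10.56 in sham WT, and 11.65, 11.70, 11.54, 11.86 and 11.43 at day 1. They read 11.77, 12.03, 11.75 and 11.64 at day 3, and 11.63, 11.46, 11.49 and 11.57 at day 7. All 3 injured groups were clear of sham. The day 1 arrays overlapped those of days 3 and 7, and every day 3 array lay above every day 7 array. The differences were 1.27 ± 0.11 (limma adjusted p = 8.5e-11), 1.43 ± 0.11 (1.26e-11) and 1.17 ± 0.11 (9.87e-10). Of the 6 largest WT increases at each time, it was first at day 7.

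Rps18, a protein of the small-subunit head, read 12.69, 12.66, 12.90 and 12.88 in sham WT and 13.97, 13.86, 13.71, 13.98 and 13.79 at day 1. It read 13.68, 14.07, 13.65 and 13.63 at day 3, and 13.45, 13.35, 13.42 and 13.51 at day 7. The day 7 arrays were lower than all arrays of days 1 and 3 and higher than all sham arrays. The differences from sham were 1.08 ± 0.09, 0.97 ± 0.1 and 0.65 ± 0.1 (limma adjusted p from 8.69e-11 to 2.19e-06). Rps6, the substrate of S6 kinase downstream of mTOR, followed the same course with differences of 0.99 ± 0.1, 0.78 ± 0.1 and 0.31 ± 0.1 (limma adjusted p = 0.0138 at day 7). The probe set used for Rps6 had a mean of 9.4, against 15.14 for the brightest one shared with other loci. Rps2, a small-subunit protein near the mRNA entry channel, rose by 0.84, 0.85 and 0.50.

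Rpl22 and Rpl10a kept most of their increase to day 7. Rpl22, an RNA-binding large-subunit protein that is dispensable for bulk translation, read 12.95, 12.87, 13.06 and 12.97 in sham WT and 13.77, 13.68, 13.77 and 13.76 at day 7. The latter arrays all lay above sham. Its differences were 0.75, 0.91 and 0.78 (SE 0.07 each). Rpl10a rose by 0.73, 0.80 and 0.74 (SE 0.06 each), and Rpl35, at the exit of the peptide tunnel, by 0.71, 0.78 and 0.62. Rps19, the gene most often mutated in Diamond-Blackfan anaemia, rose by 0.72, 0.78 and 0.46.

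Rpl12, a protein of the ribosomal stalk base, had an early and short increase on its own probe set, of mean 6.41. The brightest probe set that lists Rpl12 with other loci had a mean of 13.18, and its differences are not given here. On the probe set used, the arrays read 5.68, 5.91, 6.20 and 5.82 in sham WT, and 7.68, 7.17, 7.10, 7.49 and 7.49 at day 1. They read 6.51, 5.95, 6.64 and 6.20 at day 3, and 5.70, 5.65, 6.11 and 6.20 at day 7. Only the day 1 arrays stood clear of sham. The differences from sham were 1.48 ± 0.17 (limma adjusted p = 4.96e-08), 0.42 ± 0.18 (0.045) and 0.01 ± 0.18 (0.965). The day 3 call was lost without sham replicate 1, 2 or 4 or day 3 replicate 1 or 3 (adjusted p from 0.0688 to 0.158, differences from 0.32 to 0.43). In KO cords Rpl12 rose by 1.39 ± 0.18 at day 1 and 0.61 ± 0.17 at day 3, and its day 7 difference was -0.08 ± 0.18 (adjusted p = 0.736).

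Between day 1 and day 3 few members moved. In WT 1 member, Rps20, rose (0.15 ± 0.05) and 2 fell, Rpl12 by 1.06 ± 0.17 and Rpl22l1 by 0.17 ± 0.07, where 27.1% of all probe sets were called, 11.7% higher and 15.4% lower. That count of 3 was 1 when the arrays were grouped by their source and time fields, in a fit of only those groups and after centring on bright probe sets, and 7 with array weights. It was also 1 without day 1 WT replicate 2, day 1 WT replicate 3 or day 3 WT replicate 3. In KO 7 members rose (Rps27l, Rpl22, Rps20, Rps24, Rpl10a, Rpl7 and Rps28, by 0.11 to 0.33) and 2 fell (Rpl12 by 0.78 ± 0.17 and Rps4l by 0.33 ± 0.12), where 46.6% of all probe sets were called, 19.4% higher and 27.2% lower. The count of 9 was 5 by the source and time fields and 4 in a fit of only those groups. It was also 5 without day 1 KO replicate 2, day 1 KO replicate 3 or day 3 KO replicate 3.

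From day 3 to day 7 the direction was downward. In WT 11 members fell and 0 rose, where 19.2% of all probe sets were called, 10.5% lower and 8.64% higher. All 44 differences were negative, with a median of -0.14. The 6 largest decreases were those of Rps25 (-0.73 ± 0.21), Rps4l (-0.50 ± 0.13), Rpl14 (-0.47 ± 0.11), Rps6 (-0.47 ± 0.1), Rpl7l1 (-0.39 ± 0.11) and Rps19bp1 (-0.37 ± 0.08), with limma adjusted p from 0.00152 to 0.0154. All 6 were read on dim probe sets, with means from 6.77 to 9.54. Rps25, Rpl14 and Rps6 also have brighter probe sets shared with other loci (13.57, 13.75 and 15.14). By mean signal, calls fell on 6 of 12 members under 12, 5 of 19 at 12 to 14 and 0 of 13 at 14 or more. In KO 19 fell and 0 rose, where 30.4% of all probe sets were called, 14.2% lower and 16.2% higher, and the median was -0.13. The largest KO decreases were those of Rpl12 (-0.69 ± 0.17), Rpl14 (-0.58 ± 0.1), Rps25 (-0.58 ± 0.2) and Rps6 (-0.50 ± 0.1), on probe sets with means from 6.41 to 9.4. In the same 3 ranges of mean signal, 7, 10 and 2 members fell in KO. The lists of the 2 genotypes shared 10 genes, 90.9% of the WT list and 52.6% of the KO list. With the arrays grouped by their source and time fields the 11 WT calls became 0 and the 19 KO calls 5, and in fits of only the groups compared they became 4 and 8. The WT count was 7 without day 3 WT replicate 2, and the KO count was 10 without day 3 KO replicate 4, 12 without day 7 KO replicate 1 and 11 without day 7 KO replicate 4.

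KO cords showed the increase as well. At day 1 in KO 39 members rose and 0 fell (44.6% of all probe sets called, 20.9% higher and 23.7% lower), with a median of 0.41. At day 3 in KO 38 rose and 0 fell (64.8% called, 28.2% higher and 36.7% lower), with a median of 0.49, and at day 7 in KO 32 rose and 0 fell (47.2% called, 19.8% higher and 27.4% lower), with a median of 0.33. The WT and KO lists of members called higher, which rest on different sham arrays, shared 38 genes at day 1 (97.4% of either list), 38 at day 3 (95.0% of the WT list and the whole KO list) and 31 at day 7 (96.9% of either). Each list holds most of the 44 tested members, so much of this overlap is fixed by the list sizes. Rps25 rose in KO by 1.63 ± 0.21, 1.39 ± 0.2 and 0.81 ± 0.21 at days 1, 3 and 7, and Rps27l by 1.25 ± 0.11, 1.57 ± 0.11 and 1.14 ± 0.11. Without sham KO replicate 2 the KO counts were 35, 38 and 30. The KO arrays of Rps25 read 6.54, 6.92, 6.75 and 6.73 in sham and 8.72, 8.39, 8.03 and 8.32 at day 1, which do not overlap.

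Loss of trkB.T1 was not accompanied by a detected difference in any member. In KO against WT, 0 of 44 members were called by limma in sham, at day 1, at day 3 or at day 7, where 0.0529%, 0.549%, 0.0366% and 0.0407% of all probe sets were called. At an unadjusted p under 0.05 there were 0, 1, 3 and 2 members. The differences lay between -0.22 and 0.19 in sham, between -0.14 and 0.21 at day 1, between -0.29 and 0.25 at day 3 and between -0.11 and 0.23 at day 7, with a median SE of 0.07. Among the smallest p-values, Rpl37 differed by 0.18 ± 0.09 in sham, 0.21 ± 0.09 at day 1 and 0.23 ± 0.09 at day 7 (limma adjusted p = 1, 0.428 and 1). At day 3 these were Rpl14 (0.25 ± 0.1), Rps24 (0.13 ± 0.05) and Rps4l (-0.29 ± 0.12), with adjusted p from 0.413 to 0.418. At day 7 all KO arrays lay above all WT arrays for 8 members (Rpl22l1, Rps9, Rps3, Rpl37, Rps4l, Rpl27, Rpl13a and Rps10), against 4.58% of all probe sets, with differences of 0.07 to 0.23 and adjusted p of 1 for each.

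The difference between the KO and the WT response, tested as an interaction, was called for 0 of 44 members at day 1, day 3 and day 7, with 0.0692%, 0.0% and 0.00407% of all probe sets called. At an unadjusted p under 0.05 there were 0, 0 and 1 members. These differences lay between -0.29 and 0.32, -0.19 and 0.19, and -0.11 and 0.44, with median SEs of 0.09, 0.09 and 0.10. The largest was that of Rps4l at day 7 (0.44 ± 0.18, limma adjusted p = 1). A p that misses the threshold does not show that the genotypes respond alike. Within sham or a single day, the largest absolute KO minus WT estimate among the 44 tested members was 0.29, which is not an upper bound.

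Some members had small differences or none that passed. Rps29 had the highest mean signal of all members, 15.68 of a series maximum of 15.904, and differed from sham by 0.02 to 0.07 (adjusted p from 0.108 to 0.703). The other 2 probe sets of Rps29 rose at days 3 and 7 in both genotypes, by 0.12 to 0.20, and 1 of them at day 1 in KO (0.16). Rps27 was read on a probe set that stood at 4.71 in 17 of 34 arrays. Its differences were 0.10, 0.14 and 0.11 in WT, and its KO call at day 1 (0.20) was lost without sham KO replicate 2, sham KO replicate 3 or day 1 KO replicate 1 (adjusted p = 0.151, 0.0735 and 0.113). Rpl39, near the exit of the peptide tunnel, was called higher at day 3 in WT (0.16 ± 0.06, limma adjusted p = 0.0214) and was not called in the other 5 comparisons with sham (0.01 to 0.13). Its day 3 WT arrays (7.12, 7.31, 7.06 and 7.06) overlapped sham WT (7.03, 7.03, 6.77 and 7.06). The probe set used for Rpl39 had a mean of 7.08, against 14.86 for one shared with other loci.

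The other two, Rpl22l1 and Rps4l, are paralogs of members that rose. Rpl22l1, which can replace Rpl22 in the ribosome and is held down by it in several tissues, read 13.04, 13.12, 13.13 and 13.09 in sham WT, 12.96, 13.20, 13.06 and 13 at day 3 and 12.90, 13.01, 12.97 and 12.80 at day 7. The day 7 arrays lay below sham and the day 3 arrays overlapped it. The differences were 0.13 at day 1 (adjusted p = 0.088), -0.04 at day 3 (0.631) and -0.17 ± 0.07 at day 7 (0.0351). The day 7 call was lost without sham replicate 2, 3 or 4 or day 7 replicate 1 or 4 (-0.13 to -0.18, adjusted p from 0.0537 to 0.137).

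The log2 ratio of Rpl22l1 to Rpl22 fell in WT by 0.62, 0.95 and 0.96 at the 3 times and in KO by 0.71, 1.09 and 0.91. An exact two-sided permutation test of the arrays' ratios gave Benjamini-Hochberg adjusted p-values of 0.0317 or 0.0381 for these, over 24 tests of 4 pairs. The smallest raw p that 4 against 4 arrays allow is 0.0286, and with 5 against 4 it is 0.00794. On another probe set of Rpl22 (mean 9.32) the gene did not rise: its differences were 0.06, -0.41 and 0.01 in WT, the middle one with adjusted p = 0.00022. The third rose by 0.71, 0.83 and 0.71. The ratio to Rpl22 therefore depends on the probe set, and the transcripts each reads were not analysed here.

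Rps4l, a copy of the X-linked Rps4x, read 9.45, 9.91, 10 and 9.82 in sham WT and 9.18, 9.32, 9.06 and 9.11 at day 7, which do not overlap. Day 1 and day 3 arrays, from 9.34 to 10.16, overlapped sham. Its differences were -0.17, -0.12 and -0.62 ± 0.13 in WT, the last with a limma adjusted p of 0.000159, and 0.15, -0.19 and -0.18 in KO, none of them called. Rps4x rose by 0.47, 0.49 and 0.35 in WT and 0.41, 0.50 and 0.37 in KO. The log2 ratio of Rps4l to Rps4x fell by 0.65 at day 1 (exact permutation test, adjusted p = 0.0317) and 0.97 at day 7 (0.0381) in WT, and by 0.69 (0.0317) and 0.55 (0.0381) at days 3 and 7 in KO. The changes of -0.61 at day 3 in WT (0.0686) and -0.27 at day 1 in KO (0.0935) did not pass.

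Rpl7l1 rose by 0.64 ± 0.1 and 0.40 ± 0.11 at days 1 and 3 in WT and differed by 0.01 at day 7. Its ratio to Rpl7 was lower at day 7 in WT by 0.37 (exact permutation test, adjusted p = 0.0381) and higher at day 1 in KO by 0.26 (0.0381). The other 4 changes, from -0.17 to 0.24, did not pass (0.0686 to 0.514). The ratio of Rps27l to Rps27 rose by 0.99 to 1.44 (adjusted p = 0.0317 or 0.0381), where the probe set of Rps27 is near its lowest value. Genes of such similar sequence can share probes.

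**Figure D3:**
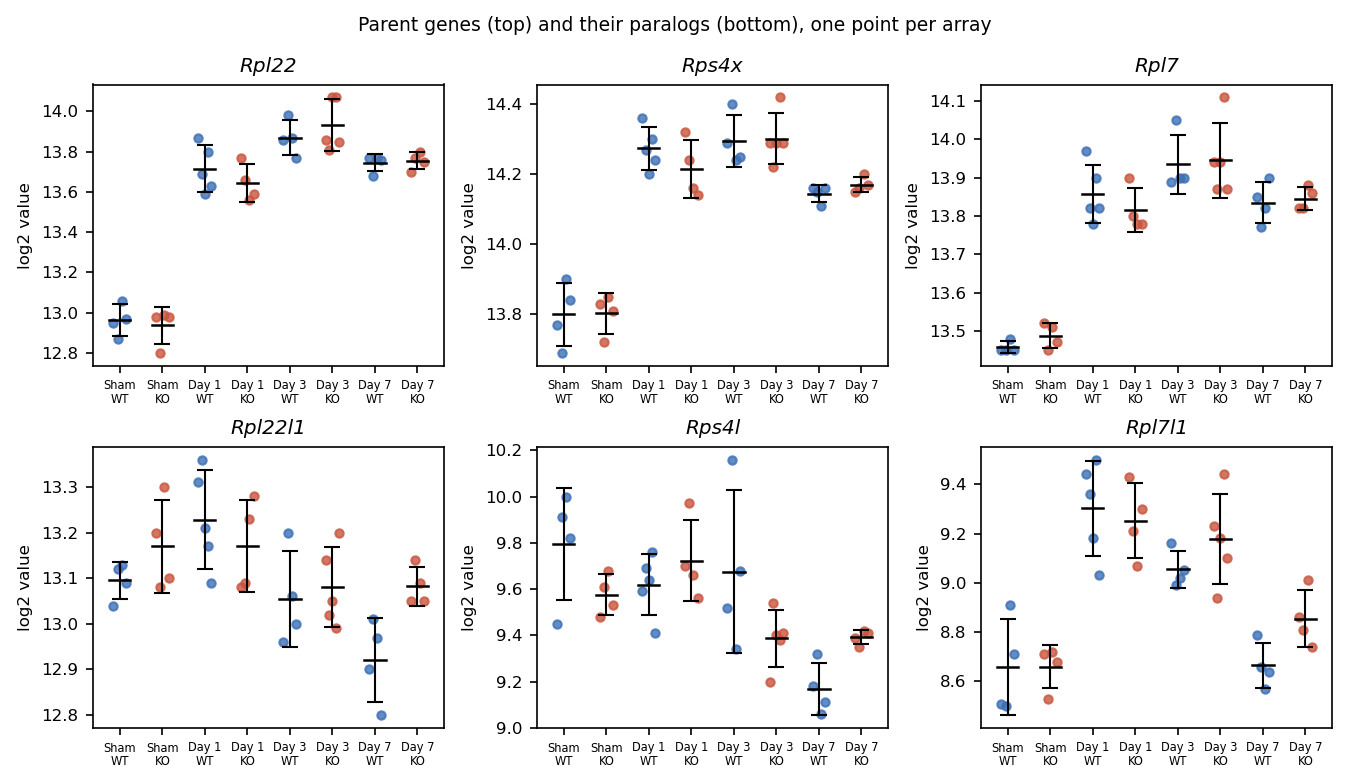
Log2 values per array (points) with group means and SD (bars), for Rpl22, Rps4x and Rpl7 in the upper panels and their paralogs Rpl22l1, Rps4l and Rpl7l1 in the lower ones. The upper genes lie higher in all injured groups, while Rpl22l1 stays between 12.8 and 13.36 and Rps4l between 9.06 and 10.16.

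Rpl3l, the paralog of Rpl3 that is made in heart and skeletal muscle, was at or near the lowest value of the array in most cords. It reached the filter level of 4 in 3 of 34 arrays: day 3 KO replicate 3 (8.43), day 3 KO replicate 1 (4.85) and sham KO replicate 4 (4.10). The mean of 8 skeletal muscle markers in these arrays was 14, 11.72 and 11.19, the highest of the series. The next array, day 7 WT replicate 3, had 10.41 and an Rpl3l value of 2.19. Muscle markers lay from 8.18 to 11.19 in sham KO and from 2.96 to 9.57 in sham WT. Of the 8 markers, 8 were lower at day 1 in KO and 7 at day 7. The part of muscle RNA in the KO differences was not tested.

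**Figure D4:**
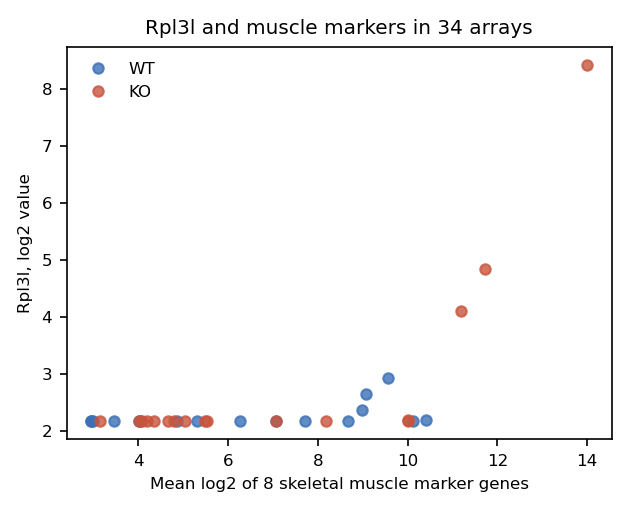
Rpl3l log2 value against the mean log2 value of 8 skeletal muscle markers, one point per array, 34 arrays. The 3 arrays with Rpl3l at 4.1 or more are the 3 with the highest muscle mean, 11.19 and over.

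The size of an increase varied with signal strength, a property of the probes as well as of the transcript. In WT the 13 members with a mean of at least 14 had median differences of 0.26, 0.30 and 0.24 at days 1, 3 and 7, the 19 with a mean of 12 to 14 had 0.52, 0.52 and 0.37, and the 12 under 12 had 0.59, 0.41 and 0.12. The median of the dimmest members thus lay nearest to sham at day 7. Over the 32 members with a mean of at least 12, Spearman's rho between mean and day 3 difference was -0.45, and over all 44 it was -0.15, as a description of genes that share arrays. Other bright probe sets were called lower more often than higher: of 328 with a mean of at least 13, 96 were called higher and 160 lower at day 3 in WT, with a median of -0.14.

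Most other probe sets that name a ribosomal protein gene had the same direction. Of all 89 tested probe sets that name a single member, 78, 81 and 69 were called higher and 0, 2 and 2 lower at days 1, 3 and 7 in WT. Among 20 members with several tested probe sets, all probe sets rose at day 3 in WT in 16. In Rpl22 and Rps20 one probe set fell (-0.41 and -0.38), and in Rpl7l1 and Rps29 one was not called. A further 98 tested probe sets list a ribosomal protein gene together with other loci, and 79, 78 and 62 of these were called higher and 0, 1 and 1 lower. In part these read genes outside the 47: 15 members are listed on such probe sets, and 30 other symbols occur only on them. The 14 members with a mean under 10 include 9 for which such a shared probe set was brighter (13.18 to 15.14), and which transcripts each reads was not tested. Rps25, Rpl12 and Rps6 are among these 9.

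The 4 ribosomal protein genes outside the naming rule that had a probe set of their own rose in all 6 comparisons. Rplp0, the scaffold of the acidic stalk and a common reference gene for PCR, rose by 1.08, 1.2 and 0.78 in WT. Rpsa, also known as the laminin receptor, rose by 0.85, 0.81 and 0.31, Rplp2 of the stalk by 0.42, 0.49 and 0.36, and Fau, which encodes Rps30, by 0.30, 0.37 and 0.49.

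Lists of genes that act with the ribosome had unequal counts by day. They stand against 24.0%, 26.1% and 21.8% of all probe sets called higher, and 28.9%, 35.7% and 31.7% called lower, at days 1, 3 and 7 in WT. Of 15 tested elongation factors and other TOP mRNAs, 11, 14 and 10 rose and 0 fell in WT at days 1, 3 and 7, with medians of 0.26, 0.34 and 0.20. Among them Pabpc1, the poly(A)-binding protein, rose by 1.08, 1.24 and 1.10, and Eef1d, of the exchange factor for eEF1A, by 0.73, 0.76 and 0.48. Btf3 of the nascent chain complex rose by 0.51 and 0.50 at days 1 and 3 and differed by 0.20 at day 7 (adjusted p = 0.227). Vim, a TOP mRNA for the intermediate filament of reactive glia and macrophages, rose by 3.16, 3.74 and 3.13.

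Of 54 nucleolar factors of ribosome biogenesis, 47 rose and 0 fell at day 1 in WT, with a median of 0.69. At day 3, 29 rose and 5 fell with a median of 0.29, and at day 7, 4 rose and 9 fell with a median of 0.0. From day 1 to day 3, 44 of the 54 fell in WT and 44 in KO (medians -0.43 and -0.46), while 2 of 44 ribosomal protein genes fell in either genotype. Ddx21, a nucleolar RNA helicase, rose by 1.58, 0.86 and 0.64, and Nhp2, of the H/ACA particles that guide pseudouridylation, by 1.39, 1.11 and 0.46. Pes1, of the PeBoW complex of 60S maturation, rose by 0.68, 0.72 and 0.47. Nolc1 differed by -0.06 at day 1 and fell by 0.79 and 0.44 at days 3 and 7. KO counts were 51, 29 and 5 higher and 0, 8 and 11 lower.

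Of 14 RNA polymerase I genes, 8, 4 and 2 rose and 0, 3 and 2 fell in WT. The shares that rose, 57.1%, 28.6% and 14.3%, were above the background at day 1, near it at day 3 and under it at day 7. Polr1d, a subunit shared with polymerase III, rose by 0.39, 0.57 and 0.44, and Taf1a of the promoter factor SL1 fell at day 3 by 0.58. Of 27 tested initiation factors and their regulators, 19, 14 and 10 rose and 1, 4 and 6 fell. Eif4ebp1, the inhibitor of cap binding that mTOR phosphorylates, rose by 2.93, 3.67 and 2.30, and Eif4a1, the cap-complex helicase, by 1.17, 0.87 and 0.53. Of 11 tested genes of mTOR signalling and translation control, 2, 2 and 1 rose and 4, 7 and 6 fell. Mtor itself fell by 0.23, 0.52 and 0.32. Of 11 tested transcription and p53 pathway genes, 6, 6 and 5 rose and 2, 3 and 2 fell. Myc rose by 3.80, 2.92 and 1.96, and the p53 target Ccng1 by 0.66, 1.10 and 0.98.

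Mitochondrial ribosomal protein genes, which encode the ribosome of the mitochondrion, had medians near 0 at days 1 and 3. Of 76 tested, 24 rose and 7 fell at day 1 in WT, 15 rose and 18 fell at day 3, and 3 rose and 34 fell at day 7, with medians of 0.03, -0.01 and -0.17. The shares called higher were 31.6%, 19.7% and 3.95% and those called lower 9.21%, 23.7% and 44.7%, so that at day 3 both were under the background. In KO 22, 20 and 3 rose and 6, 18 and 35 fell. Mrps6 (2.00, 1.52 and 0.67) and Mrpl33 (0.84, 1.11 and 0.47) had the largest increases at day 3, and Mrpl38 fell by 0.54 at that time.

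**Figure D5:**
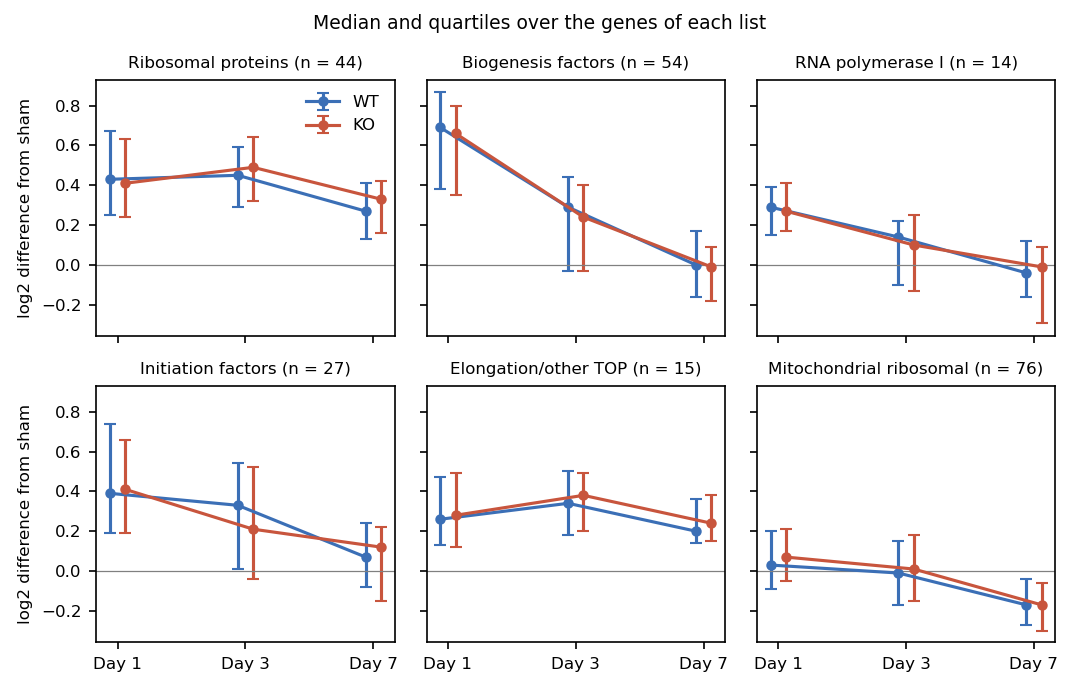
Median log2 difference from sham at days 1, 3 and 7 for the tested genes of each list, in WT and KO, with bars from the lower to the upper quartile over genes. The cytosolic ribosomal proteins run 0.43, 0.45 and 0.27 in WT, the nucleolar biogenesis factors drop from 0.69 to 0.0, and the mitochondrial ribosomal proteins end at -0.17.

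Markers of several cell types moved over the same days. The mean of 8 microglia and macrophage markers was 8.00 in sham WT (arrays from 7.90 to 8.11), 9.57 at day 1 (9.31 to 9.73), 11.06 at day 3 (10.55 to 11.31) and 11.93 at day 7 (11.77 to 12.14), with 7, 8 and 8 of 8 called higher. It rose through day 7, while the ribosomal protein mean was lower at day 7 than at day 3. The mean of 3 homeostatic microglia markers was lower at day 1: 7.46, 6.34, 7.89 and 8.49 across the WT groups, and 7.27, 5.86, 8.29 and 8.65 in KO. In either genotype 0, 1 and 2 of these 3 were called higher and 1, 0 and 0 lower. Of 3 tested neutrophil markers, 0, 0 and 1 were called higher in WT and 0, 1 and 1 in KO. The mean of 5 wound macrophage markers was 4.79, 10.33, 11.92 and 11.61, with 5 of 5 called higher each time. The mean of 5 proliferation markers was 4.15, 6.30, 8.96 and 7.24 across the WT groups, and 3.61, 3.65, 9.34 and 7.27 across the KO groups. At day 1 5 of 5 proliferation markers were called higher in WT and 1 of 5 in KO, and 3 of 5 were called in the interaction, where no ribosomal protein gene was. The mean of 5 neuronal markers was 13.11 in sham WT and 12.52, 12.23 and 12.38 at days 1, 3 and 7, with 3, 5 and 5 of 5 called lower. The mean of 5 endothelial markers was 5.87 in sham WT (arrays from 5.72 to 6.04), 7.28 at day 1 (7.10 to 7.47), 8.04 at day 3 (7.53 to 8.75) and 6.39 at day 7 (5.46 to 7.35). Of these 5, 5, 5 and 1 were called higher against sham, and 5 fell from day 3 to day 7. The proliferation markers also fell over this interval, 5 of 5 in WT and 5 of 5 in KO. In WT the ribosomal protein differences were negative over the same interval. In KO the endothelial mean was 6.32, 7.2, 7.81 and 6.20, with 2, 4 and 1 of 5 called higher and 4 lower from day 3 to day 7. The mean of 6 fibroblast markers was 8.14, 9.45, 10.44 and 11.51 across the WT groups, with 3, 4 and 6 called higher. Of 5 astrocyte markers, 2, 2 and 3 were called higher and 3, 1 and 0 lower, and 2 of 2 Schwann cell markers were called higher each time. Of 4 oligodendrocyte markers, 2, 4 and 3 were called lower, and 0 of 4 T and B lymphocyte markers passed the filter. The part of these cell types in the ribosomal protein differences was not tested.

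RNA quality, read as the difference between 3′ and 5′ control probe sets, also moved with injury. For Actb it was 1.97 in sham WT and 1.72, 1.49 and 1.85 at days 1, 3 and 7, and in KO 2.08, 1.77, 1.5 and 1.94. Day 7 WT replicate 4 had the lowest value of its group (1.45). For Gapdh it was 0.07, 0.29, 0.21 and 0.42 in WT. The part of RNA quality in the differences was not tested.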

How the data were processed

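Total RNA was extracted with Trizol and labelled as biotinylated cRNA for Affymetrix arrays, per the labels' protocols. The authors deposited log2 values computed with GCRMA, per the submitters' processing notes; its version was not stated, and the genome build was not given in the sources used here. The values were used as deposited, with no further scaling. Of 45101 probe sets, 64 controls were left out, and 24573 that reached a log2 value of 4 in 4 or more arrays entered the tests. Genes were named only from probe sets with 1 symbol in the platform annotation (34945, of which 34741 matched RefSeq by Entrez identifier). No 2 arrays were identical, and the number of arrays per group limits the precision. Whether arrays are separate animals is stated only as biological replicates, so p-values measure the spread between these arrays.

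limma 3.58.1 (R 4.3.3) was used to fit a model of 8 group means to 34 arrays (lmFit, eBayes, 26 residual and 2.62 prior degrees of freedom), with Benjamini-Hochberg adjustment over all probe sets of a comparison and a threshold of 0.05. It was tested on simulated data. Ratios of paralogs were compared with exact two-sided permutation tests in scipy 1.17.1. The members and lists were chosen with earlier results of these data known. Named were all paralogs and their parents, the 6 largest called changes per direction, the 3 smallest p-values between genotypes, the members with extreme or low signal, and the 4 largest changes per list at day 3 in WT; some list members are left out where lists are summarised. Other members are named to complete a short count or a gene group. The alternatives were another filter, probe set choice, scaling, weights, grouping, a replicate block and leaving out each array. Replicate numbers were not used to pair arrays: of 113 pairs of arrays with the same number, 21 had correlated deviations over 0.1.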

Additional observations from a re-analysis of the deposited data

Results flagged for a closer look

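In 88 groups of arrays (10 genes and the member mean), 7 held an array farther from the others than Dixon's criterion at the 95% level allows, where chance gives about 1 in 20. Rpl22 was 12.8 in sham KO replicate 2, the array whose Ntrk2 signal is nearer to WT than to the other KO arrays, with the nearest array at 12.98. It was 13.68 in day 7 WT replicate 2, with the nearest at 13.76. Rps18 was 14.07 in day 3 WT replicate 2, with the nearest at 13.68. Rps29 was 15.69 in day 7 WT replicate 1, with the nearest at 15.66. Rpl3l, otherwise at 2.17 to 2.2 in these groups, was 4.1 in sham KO replicate 4, 2.36 in day 3 WT replicate 1 and 2.19 in day 7 WT replicate 3.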

How the results depend on the processing

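Among 18 named members followed singly, no difference from sham changed sign where it was called. Counts of members called against sham kept to within 1.5 times under the alternatives run. Leaving out 1 array at a time, they ran from 38 to 40 (day 1 WT), 37 to 40 (day 3 WT), 29 to 36 (day 7 WT), 35 to 40 (day 1 KO), 37 to 39 (day 3 KO) and 30 to 33 (day 7 KO). Between days the ranges were 1 to 4 (day 3 against day 1, WT), 7 to 13 (day 7 against day 3, WT), 5 to 10 and 10 to 23 (the same in KO). Both kinds of genotype comparison stayed at 0 under these settings and all others.

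Comparisons between days depended on the setting, and the cause was not tested. For day 3 against day 1 in WT, the count of 3 was 1 after centring on bright probe sets, 7 with array weights, 1 in a fit of only the groups compared and 1 when grouped by the source and time fields. In KO the 9 became 4 with only the groups compared and 5 by those fields. For day 7 against day 3, the 11 in WT became 4 and 0, and the 19 in KO became 8 and 5, under the same 2 settings. Grouped by those fields, 31, 34 and 26 members were called against sham in WT. That grouping moves day 1 WT replicate 1 to day 7 and replicate 2 to sham, and moves no KO array. The mean over the 44 tested members was 12.52 and 12.42 in these arrays, against at most 12.23 in day 7 WT and 11.99 in sham WT.

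With the replicate number as a block, 39, 40 and 34 members were called against sham in WT at days 1, 3 and 7, and 39, 39 and 31 in KO. The numbers did not pair arrays: deviations of 113 pairs correlated at -0.454 to 0.43, and 5 of 34 arrays correlated best with their own number. Without sham KO replicate 2 and day 7 WT replicate 4 (low Actb difference) together, chosen after seeing the data, the counts were 39, 40 and 30 in WT and 35, 38 and 30 in KO.

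For the 18 named members followed singly against sham, 4904 alternative values kept their side of the threshold, 30 lost the call and 28 gained one. Other members and differences between days were not followed singly. Signal near the lowest value (33.7% of all values lie within 0.1 of it) sets no level for Rps16, Rpl3l and Rpl39l.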
